A study of Mus musculus with 35 samples.

Results

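Tnc, Spp1 and Lgals1 encode secreted proteins that act around cells, and their transcripts were followed through 9 culture passages of mouse ovarian surface epithelial (MOSE) cells. All cDNA clones on the array with 1 of these 3 symbols were taken, which gave 5 of 15254 clones, and 3 of the 7389 genes that could be named. Tnc had clone L0062E01, Spp1 had clone H3082C12, and Lgals1 had H3022G07, H3003A03 and H3009D05. The 3 genes were chosen by their difference from p2 at p5 on these same arrays, with p7 also known, so their levels at those passages are given as a description, with no test.

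The MOSE cells were the ovarian surface epithelium of adult virgin C57BL/6 females, 8 weeks old, kept in primary culture, with no treatment and no transgene. They were sampled at 8 later passages, named by number (p5 and p7, then p10, p14 and p18, and last p23, p25 and p28), and at p2, which was the baseline. Each passage was set against the same reference RNA, from a whole newborn male of the same strain, on 2-color arrays of spotted cDNA, with 4 arrays per passage and 3 at p7. MOSE RNA was labeled with Cy5 on the direct arrays (d1 and d2) and with Cy3 on the reverse arrays (r1 and r2; r1 alone at p7). No label names separate cultures, so the arrays of a passage count as repeat hybridizations. Every error and p-value below covers the spread between arrays and not the spread between cultures, except for the slope over p10 to p28. That slope is fitted over passage means, so its p-value covers their spread around a line.

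Tenascin-C (Tnc), osteopontin (Spp1) and galectin 1 (Lgals1) are called matricellular because they sit in the matrix around cells and change how cells hold on to it, without being building parts of that matrix. Tenascin-C is a large multi-armed glycoprotein of embryonic tissue, wounds and tumor stroma that loosens the grip of cells on fibronectin. Osteopontin is an acidic phosphoprotein that binds integrins and CD44, and galectin 1 is a small lectin that cross-links galactose-bearing sugars on integrins and other surface proteins.

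Tnc and Spp1 ran in parallel (values below) and have their start regions in the sequence tables used here, so the 250 bases before the annotated start of Tnc and of Spp1 are shown (RefSeq, GRCm38.p6, each written 5′ to 3′ on the strand of its gene). Tnc lies on chromosome 4 (63959785 to 64047015, minus strand) and its window is chr4:64047016-64047265. Spp1 lies on chromosome 5 (104435111 to 104441053, plus strand) and its window is chr5:104434861-104435110. Lgals1 lies on chromosome 15 (78926725 to 78930465). Capitals mark matches to the motifs named after the sequences.
Tnc: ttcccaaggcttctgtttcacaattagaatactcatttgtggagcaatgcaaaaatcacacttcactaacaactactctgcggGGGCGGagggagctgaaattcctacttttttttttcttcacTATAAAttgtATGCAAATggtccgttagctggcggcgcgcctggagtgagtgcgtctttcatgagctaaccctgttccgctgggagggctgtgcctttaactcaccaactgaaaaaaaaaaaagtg
Spp1: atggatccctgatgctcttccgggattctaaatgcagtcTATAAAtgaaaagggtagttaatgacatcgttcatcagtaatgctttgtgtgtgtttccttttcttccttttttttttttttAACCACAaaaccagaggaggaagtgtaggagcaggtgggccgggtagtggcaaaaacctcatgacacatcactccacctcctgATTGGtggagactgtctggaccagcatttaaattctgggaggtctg
A set of 7 motifs was searched on both strands, namely the TATA box (TATAAA), the GC box (GGGCGG), the CCAAT box (CCAAT), the octamer (ATGCAAAT), AP-1 (TGANTCA), Runx (AACCACA) and the E box (CACGTG). The letters TATAAA stood in both windows, at position −126 from the start in Tnc and −211 in Spp1, and 12.4% of the 32851 promoters of the table held it. The Tnc window also held GGGCGG and ATGCAAAT, which 32.7% and 1.6% of promoters held. The Spp1 window held AACCACA (4.4% of promoters) and CCAAT on the other strand (33.8%), which reads ATTGG as printed. Neither of these 2 windows held TGANTCA or CACGTG. The table holds a second start for each gene, and the outermost is shown. The window of the second Tnc start, chr4:64046937-64047186, overlaps the first and holds the same 3 motifs, and that of the second Spp1 start, chr5:104435942-104436191, holds ATGCAAAT and none of the others. A match is only a run of letters, and none of these arrays measured binding.

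A level here is the log2 ratio of MOSE over newborn reference after loess normalization and scaling of the arrays, so 0 means as much signal as in the reference. Levels of different clones depend on each clone's own reference signal and are not set against each other. Over all 35 arrays, 98.8% to 99.6% of clones were above local background in both channels, 0.944% to 20.1% of spots were flagged (the most on p5 array d1) and at most 0.0852% were saturated. Every spot of the 5 clones was unflagged, unsaturated and above background in both channels. Of 16 markers of ovarian surface and mesothelial cells, 12 were on the array, and 10 to 12 of them were above the reference at each passage, with a median log2 ratio between 0.74 at p23 and 2.29 at p10. None of the 6 measured macrophage and leukocyte markers was above the reference, a whole newborn, at any passage. Their median in the MOSE channel alone (log2 brightness less the array median) was nevertheless lower after p2. It was −0.56 at p2, −1.22 at p5, −0.80 at p7 and −0.82 at p28. Medians of single arrays ran over −0.55 to −0.44 at p2 and −1.27 to −1.10 at p5. The reference channel also moved, from 0.34 at p2 to −0.004 at p5. The part of such cells in the Spp1 values was not tested. Of 7 granulosa markers, 3 were on the array, and all 3 were above the reference at p2, p5 and p7 and 1 at p28. Their median log2 ratio was 1.12 at p2 and −0.01 at p28. The markers differed, since at p2 Amhr2 read 3.54, Inha 1.12 and Foxl2 0.11, the last close to the reference. In the MOSE channel Foxl2 was below the array median at p2, p5 and p7 (−0.65, −0.38 and −0.55). These are bulk cultures, in which fewer cells of a type and less RNA per cell cannot be told apart.

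Tnc was far lower at p5 and p7 than at p2 and stood nearer to p2 later. Its log2 ratio was −1.75, −2.64, −2.15 and −2.34 on the p5 arrays and −3.26, −3.14 and −2.25 on the p7 arrays, against −0.08, 0.28, 0.23 and −0.20 on the p2 arrays. All p5 and p7 arrays lay far below all p2 arrays. The mean was −2.22 ± 0.37 at p5 (SD, n = 4) and −2.73 ± 0.55 at p7 (n = 3), against 0.06 ± 0.23 at p2 (n = 4). The log2 difference was −2.28 at p5 (SE 0.22, 4.86-fold lower) and −2.78 at p7 (SE 0.34, 6.89-fold lower). The 2 dye orientations gave nearly the same difference at p5, −2.30 in direct and −2.27 in reverse arrays, and at p7 −3.30 and −2.27.

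From p10 on, Tnc stayed above its p5 and p7 levels. The p10 arrays read −1.53, −1.51, −0.91 and −1.16, and the p14 arrays −0.53, −0.72, −0.77 and −0.88. The p18 arrays read −0.32, −0.44, −0.67 and −1.37, the p23 arrays −0.78, −2.23, −0.86 and −0.36, and the p25 arrays −1.31, −1.02, −0.94 and −0.82. Only p23 array d2 reached as low as the p5 arrays. At p28 the arrays read −0.81, −0.87, −0.30 and −0.56, with a mean of −0.64 ± 0.26 (SD, n = 4), a difference of −0.70 from p2 (SE 0.17). The arrays of all 8 later passages lay below those of p2. Of all clones, 5.32% (p18) to 8.12% (p23) were lower than p2 in this way at a single passage. In order of mean the passages ran p7, p5, p10, p23, p25, p14, p18, p28 and p2, and among neighbors in that order only p10 over p5 and p2 over p28 had arrays that did not overlap. The p28 mean had covered 75.0% of the log2 distance from p7 back to p2.

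Spp1 followed a like course. It read −3.16, −4.26, −4.22 and −4.16 on the p5 arrays and −5.64, −3.40 and −4.88 on the p7 arrays, against −1.19, −1.14, −1.62 and −1.61 on the p2 arrays. The groups did not overlap, although the p7 arrays were spread over more than 2 log2 units. The mean was −3.95 ± 0.53 at p5 (SD, n = 4) and −4.70 ± 1.14 at p7 (n = 3), against −1.39 ± 0.26 at p2 (n = 4), which is 5.91-fold and 9.91-fold lower (log2 difference −2.56, SE 0.29, and −3.31, SE 0.67). Spp1 was below the newborn reference on every array of every passage.

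After p7, Spp1 stayed low at p10, with −3.85, −3.99, −3.75 and −4.23 on its arrays, where Tnc had already left its lowest levels. The p14 arrays read −2.72, −2.45, −2.84 and −3.31. At p28 they read −1.87, −1.80, −1.86 and −1.47, a mean of −1.75 ± 0.19 (SD, n = 4), and this range overlapped that of p2. The passages between them were far less precise, since the p25 arrays ran over −2.51, −4.24, −3.89 and −3.17, the p18 arrays ran over −2.17, −1.09, −5.06 and −3.10 and the p23 arrays over −2.08, −5.18, −2.49 and −1.94. In the order p7, p10, p5, p25, p23, p18, p14, p28 and p2, the only neighbors whose arrays did not overlap were p14 and p28.

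Lgals1 ran the opposite way at p5 and p7, on all 3 of its clones. H3022G07 read 3.71, 3.32, 3.78 and 4.29 on the p5 arrays and 3.70, 4.91 and 3.27 on the p7 arrays, against 1.51, 1.73, 2.00 and 2.92 on the p2 arrays. H3003A03 read 3.25 to 3.54 at p5 and 2.07 to 3.70 at p7, against 0.92 to 1.18 at p2. H3009D05 read 4.14, 3.33, 4.31 and 4.51 at p5 and 3.75, 3.88 and 2.69 at p7, against 0.25, 1.72, 1.97 and 2.04 at p2. On each clone, every p5 and p7 array was above every p2 array. The mean of the 3 clones was 3.76 ± 0.33 at p5 (SD, n = 4) and 3.28 ± 0.75 at p7 (n = 3), against 1.52 ± 0.44 at p2 (n = 4), which is 4.73-fold and 3.39-fold higher (log2 difference 2.24, SE 0.27, and 1.76, SE 0.49).

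As background for these p5 and p7 values, in which the 3 genes were chosen, 6.25% of all 15254 clones had higher and 6.12% had lower arrays without overlap at p5 than at p2, and 1.62% and 2.08% were over 2-fold higher and lower. At p7 the shares were 6.83% and 6.94% without overlap, and 1.42% and 1.69% over 2-fold. All contrasts with p2 share its 4 arrays.

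From p10 on, the 3-clone means of Lgals1 were, by passage, 2.85 ± 0.07, 1.90 ± 0.51, 0.96 ± 0.36, 0.60 ± 0.43, 1.80 ± 0.16 and 1.95 ± 0.25 (SD, n = 4 each), lowest at p23. Taken as these 3-clone means, the arrays of p14 to p28 overlapped those of p2 at each of these passages, while those of p10 (2.77 to 2.93) stood above those of p2 (0.92 to 1.96). Single clones differed in this. H3003A03 was above p2 without overlap at p14, p25 and p28, by 0.865 (SE 0.14), 0.40 (SE 0.098) and 0.72 (SE 0.097), H3022G07 was below p2 without overlap at p23 (−1.07, SE 0.42) and overlapped it at p10, and H3009D05 overlapped p2 from p14 to p28. Of all clones, 6.28%, 6.84%, 7.47% and 9.32% were higher than p2 without overlap at p10, p14, p25 and p28. At p23, 8.12% were lower in this way. The Lgals1 clones are different cDNAs of 1 gene, and their 9 passage means correlated at 0.94 to 0.97. Single low spots occurred on H3009D05, which read 0.03 on p14 array r1 where its other p14 arrays read 1.36, 2.40 and 2.71.

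**Figure D1:**
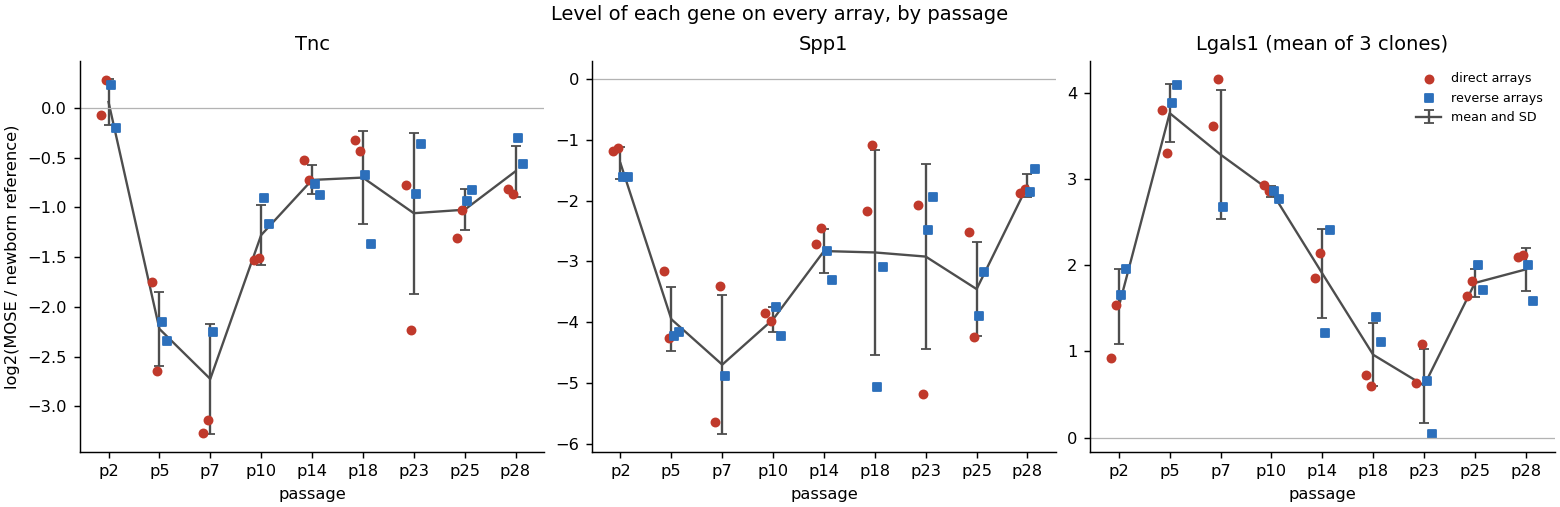
Log2 ratio of MOSE over newborn reference (y axis) at each passage (x axis) for Tnc, Spp1 and Lgals1, with 1 point per array (direct and reverse arrays marked apart) and the mean with SD bars. Tnc and Spp1 are lowest at p7 and Lgals1 is highest at p5, and the arrays of p18 and p23 are widely spread for Spp1.

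The 2 channels were also read apart, as log2 brightness less the median of that channel on the array, which leaves the reference out. In the MOSE channel, Tnc differed from p2 by −2.15 at p5 and −1.42 at p7, Spp1 by −2.67 and −2.39, and Lgals1 by 1.95 and 1.49. The reference channel, which held the same RNA on all arrays, also moved, by −0.58 for Tnc, −0.72 for Spp1 and −0.61 for Lgals1 at p5, and by 0.46, 0.11 and −0.67 at p7. The MOSE channel gave another course for Lgals1 from p10 on, since it differed from p2 by 2.06 at p10, 1.13 at p23 and 1.88 at p28. By that measure Lgals1 was at 4.92 at p28 and 4.99 at p5, and only 3.62% of the distance back to p2 had been covered. Tnc in the MOSE channel was lowest at p5 and stood 0.29 above p2 at p28, so its place below p2 at all 8 later passages holds for the ratio as reported and not for this channel. Spp1 in the MOSE channel was lowest at p23 (−2.90 from p2) and stood 0.21 above p2 at p28.

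**Figure D2:**
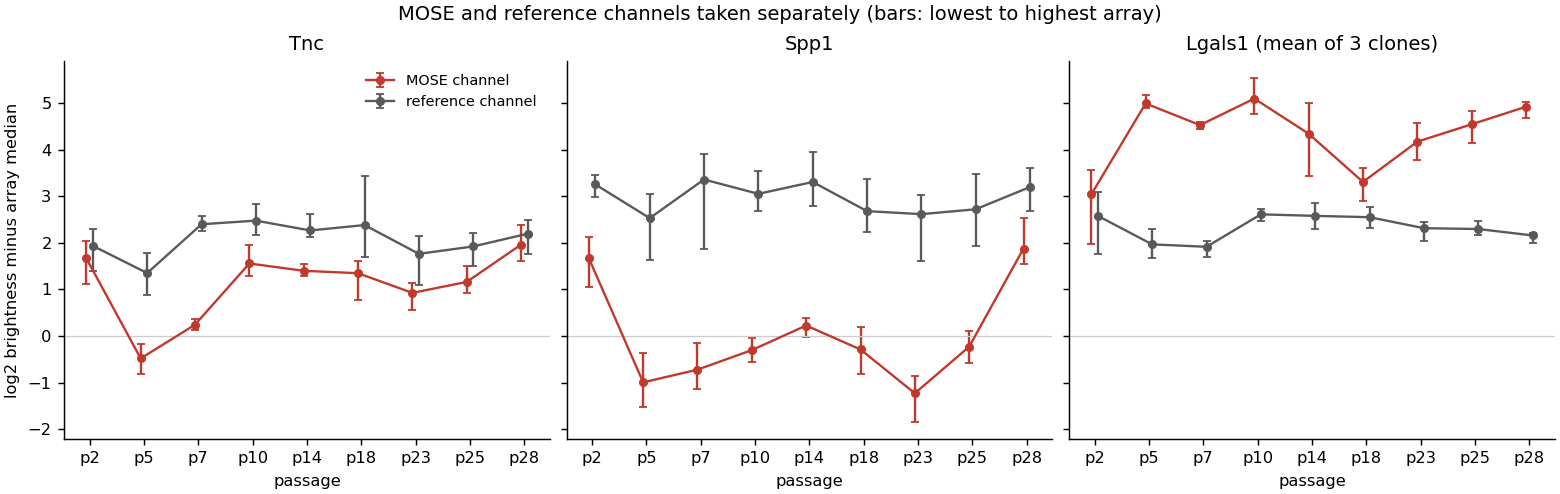
Brightness of the MOSE and the reference channel (y axis, log2 minus the median of the channel on that array) by passage (x axis), as the mean with bars from the lowest to the highest array. At p5 and p7 the MOSE channel lies below p2 for Tnc and Spp1 and above p2 for Lgals1, and for Lgals1 it is at 4.92 at p28, against 3.04 at p2.

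How far the genes returned to p2 depended on the normalization. Scaling evens out the spread of log ratios between arrays, which was 0.248 to 0.728 (median absolute deviation, with the default constant of R) before it. For Lgals1 the p28 difference from p2 was 0.43 as reported, 1.08 without scaling and 1.87 without loess, and the share of the way back was 80.8%, 48.9% and 32.8%. Its p23 difference from p2 was −0.92 as reported, −0.32 without scaling and 0.50 without loess, so the statement that p23 was its lowest passage holds only with loess. For Spp1 the share of the way back was 88.9% as reported, 68.5% without scaling and 119.0% without loess, and its p23 difference from p2 was −1.53, −3.12 and −0.44, with p23 and not p7 the lowest passage without scaling. For Tnc the share was 75.0% as reported and 66.2% without scaling, and without loess p28 differed from p2 by 0.0069, with p7 the lowest passage in all 3 settings. The deposited table of log2 ratios gave shares of 50.1% for Lgals1 and 64.8% for Spp1. The p5 and p7 differences kept their signs in all 3 genes in these settings. The analysis without loess was chosen after the data were seen.

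**Figure D3:**
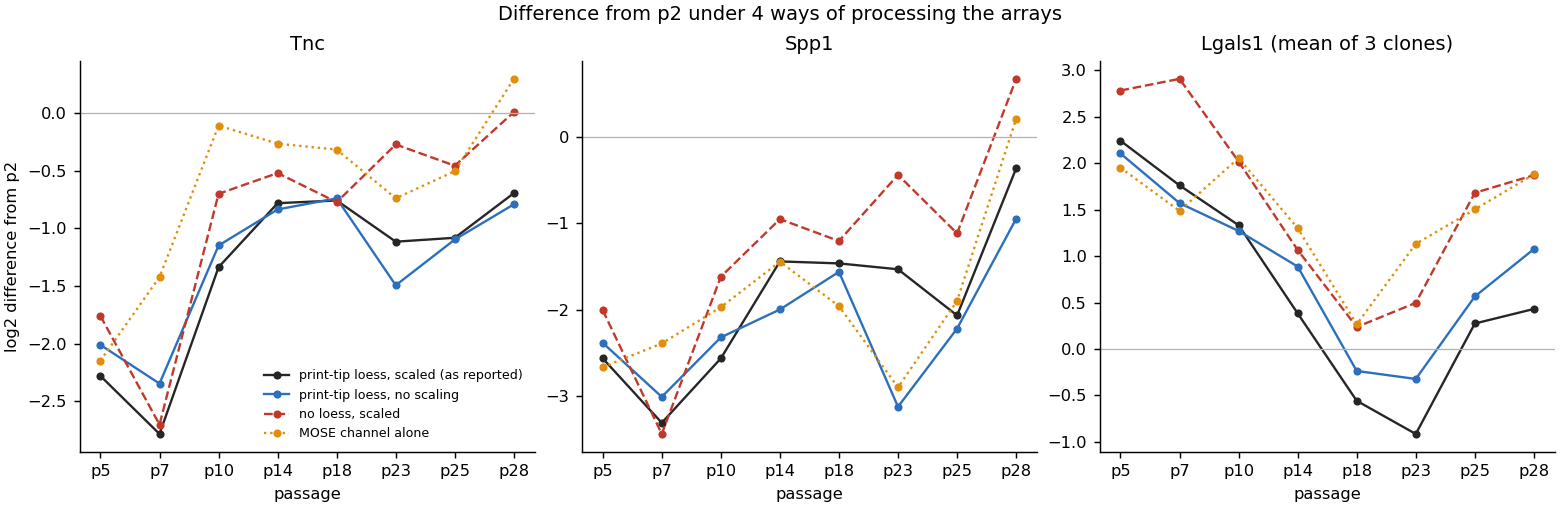
Log2 difference from p2 (y axis) at each later passage (x axis) with 1 line for each of 4 ways of processing, namely as reported, without scaling, without loess, and in the MOSE channel alone. The lines keep 1 sign at p5 and p7 and part later, at p23 over −3.12 to −0.44 for Spp1 and −0.92 to 1.13 for Lgals1.

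The passages from p10 on were not used to choose the genes and were tested with limma, each against the one before, and p23 against p14, with Benjamini-Hochberg adjustment over 15254 clones. In 30 such tests of the 5 clones, none passed an adjusted p of 0.01, while 14 had an unadjusted p under 0.05 and 13 had arrays that did not overlap. The 13 count both directions. Over all clones, by contrast, 1.88% to 6.54% were higher and 1.08% to 6.99% lower without overlap. Of the 5 clones 3 are of Lgals1, so the 30 tests are not separate. Over all clones, limma called 1.65% (p14 against p10), 0.0131% (p18 against p14), 0.0% (p23 against p18), 0.0% (p25 against p23), 0.144% (p28 against p25) and 0.00656% (p23 against p14). At an unadjusted p under 0.05 the contrasts, in that order, held 5, 2, 0, 3, 1 and 3 of the 5 clones, against 2919, 1647, 890, 779, 1605 and 2427 of all 15254 clones (19.1%, 10.8%, 5.83%, 5.11%, 10.5% and 15.9%).

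At p14 against p10 all 5 clones had arrays that did not overlap, Tnc and Spp1 higher and the 3 Lgals1 clones lower. Among all clones 6.54% were higher and 6.99% lower in this way. Spp1 averaged −2.83 at p14 and −3.95 at p10, a difference of 1.12 (SE 0.19, limma adjusted p = 0.0122). Without scaling this difference was 0.32. Tnc differed by 0.55 (SE 0.17, limma adjusted p = 0.0995). Of the Lgals1 clones, H3003A03 averaged 1.89 at p14 and 2.87 at p10 (difference −0.98, limma adjusted p = 0.0183), H3022G07 differed by −0.54 (limma adjusted p = 0.0421) and H3009D05 by −1.33 (limma adjusted p = 0.179). Without scaling, H3003A03 differed by −0.39 and H3022G07 by 0.06, the opposite direction.

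Lgals1 was lower still at p23 than at p14, again without a call. At p23 against p14, H3003A03 averaged 0.40 at p23 and 1.89 at p14 (difference −1.50, SE 0.29, limma adjusted p = 0.053) and H3022G07 averaged 0.97 at p23 and 2.20 at p14 (difference −1.23, limma adjusted p = 0.0659). The third clone, H3009D05, differed by −1.175 (limma adjusted p = 0.294), and its arrays overlapped. In the MOSE channel H3009D05 was higher at p23 (4.055) than at p14 (3.325), while H3003A03 and H3022G07 were lower. The arrays of both passages bear names of 1 style. At p25 against p23 all 3 clones were higher without overlap, by 1.03 to 1.35, where 1.88% of all clones were, but their limma adjusted p was 0.155 to 0.586. Spp1 averaged −1.75 at p28 and −3.46 at p25 (difference 1.70, SE 0.32, limma adjusted p = 0.0437), and its arrays did not overlap, as in 3.72% of clones on the higher side. Without p25 array d1 that adjusted p was 0.00674. Tnc differed by −0.36 to 0.39 in the contrasts after p14, with none called.

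A straight line over p10 to p28, fitted over the 6 passage means, had a slope of 0.07 log2 units per passage for Spp1, 0.01 for Tnc and −0.07 to −0.03 for the Lgals1 clones. Their limma adjusted p was 0.637 to 0.845, and the slope called 0 of 15254 clones, with 1229 at an unadjusted p under 0.05.

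**Figure D4:**
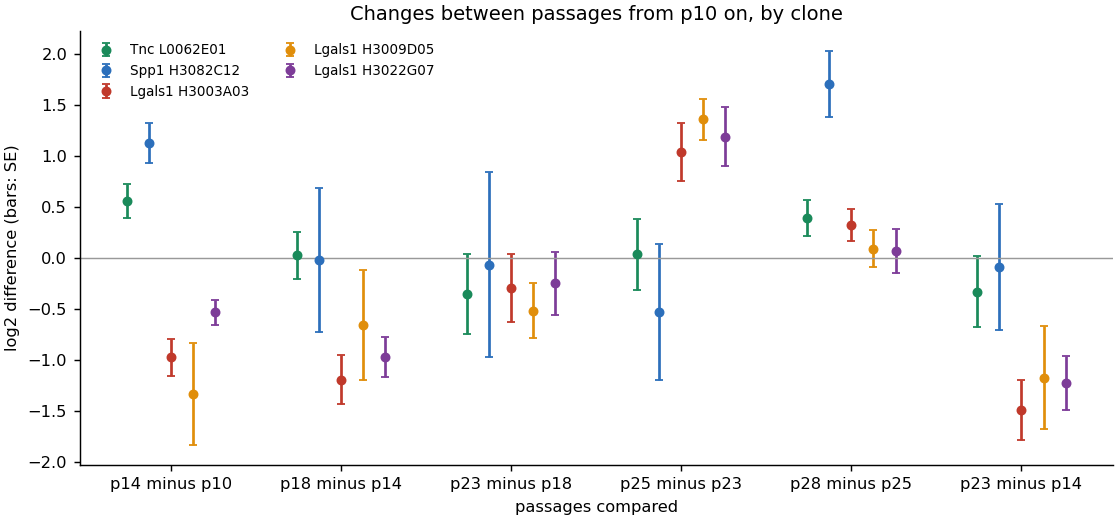
Log2 difference between passages from p10 on (y axis), 1 point with SE bars per clone, for the 6 pairs of passages on the x axis, the later one named first. Spp1 and Tnc lie above 0 and the Lgals1 clones below 0 at p14 minus p10, and no point passed the adjusted p of 0.01.

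Tnc and Spp1 ran in parallel over the 9 passages, with Pearson's r = 0.90 and Spearman's rho = 0.95. Lgals1 ran against them less closely, with r = −0.74 and rho = −0.58 for Tnc and r = −0.63 and rho = −0.55 for Spp1. These are descriptions over 9 means which share the arrays, the reference and the cultures' order, and the p5 and p7 values that chose the genes carry much of them. Among 592 named clones that varied and were measured on all arrays, the course most like Tnc was that of Dsp, a desmosome protein (r = 0.92), followed by Lrrfip1 (r = 0.845), and then by Vgll3, Serpina1e, Naa11 and Col1a1 (r = 0.75 to 0.78). Dsp read −3.19 at p5 and −3.39 at p7, against −1.64 at p2. The courses most like Spp1 were those of Lrrfip1 (r = 0.88) and Vgll3 (r = 0.85), followed by Dsp, Ctla2a, Col1a1 and Psat1 (r = 0.785 to 0.81). Without p2, Col1a1, which encodes a chain of type I collagen, was the nearest to Spp1 (r = 0.97). Other ranks also moved without p2. Dsp then ranked 9 for Tnc and 100 for Spp1, Vgll3 100 and 112, and Lrrfip1 31 and 19. Most like Lgals1 were Palld, which encodes the actin-bundling protein palladin (r = 0.97), Me1, a malic enzyme (r = 0.95), and Ube2h, a ubiquitin-conjugating enzyme (r = 0.94), with Soat1, Alcam and Aox3 next (r = 0.855 to 0.93). Without p2, Palld ranked 3, Me1 12 and Ube2h 11 for Lgals1. Palld read 2.03 at p5 and 1.62 at p7, against 0.85 at p2, and it read 0.77 at p28.

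Markers of fibroblasts and stroma were split. For the 6 of 11 on the array, the median log2 ratio was −1.81 at p5 and −2.13 at p7, against −0.96 at p2, and it was −0.72 at p28. Their median in the MOSE channel was 0.68 at p5 and 0.46 at p7, against 0.81 at p2, and the medians of single arrays ran over 0.30 to 1.01 at p5, 0.11 to 0.72 at p7 and 0.54 to 1.06 at p2. Col1a1 read −5.64 at p5 and −6.23 at p7, against −4.25 at p2, and −2.45 at p28. Its MOSE channel moved less, with 0.36 at p5 and 0.24 at p7, against 0.56 at p2. The Col1a1 reference channel read 5.57 and 5.25, against 4.51 at p2, so much of the lower ratio lay in the reference. Col1a2 (−5.59 and −2.24, against −0.90 at p2) and Pdgfra (−1.70 and −2.02, against −1.02) were also lower at both passages. The Col1a2 value at p5 came with a very dim MOSE channel (−4.12, against 0.69 at p7 and 1.05 at p2). Col3a1 was lower at p7 alone (−1.92 and −2.96, against −1.91), whereas Dcn (0.84 and 1.27, against 0.70) and Pdgfrb (−0.14 and −0.34, against −0.82) were higher. At every passage 4 or more of the 6 were brighter than the array median in the MOSE channel. The part of such cells in the Tnc and Spp1 values was not tested.

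Genes tied to these proteins were examined from lists that held their matricellular relatives, galectins and galectin partners, receptors, adhesion signaling proteins, the proteases and transglutaminases that modify them, and regulators of Tnc or Spp1. Of 120 genes 56 were on the array, namely 6 of 25 matricellular relatives, 7 of 13 galectins and partners, 11 of 21 receptors, 6 of 11 adhesion signaling genes, 7 of 14 proteases and transglutaminases and 19 of 32 regulators. None of the 4 nearest relatives of osteopontin was on it. At p5 and p7, where Tnc, Spp1 and Lgals1 stood furthest from p2, limma called none of the 56 against p2 (adjusted p under 0.01, any clone), where it called 0.487% and 0.0541% of all 7389 genes. At an unadjusted p under 0.05 it found 21 of the 56 at p5 and 19 at p7, which is 37.5% and 33.9%, against 24.3% and 18.2% of all genes. The median difference of the 56 was 0.03 at p5 and −0.09 at p7, against 0.04 and 0.01 over all genes.

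At later passages, single list genes were called against p2. From p10 to p28, by passage, the counts called higher were 1, 2, 2, 2, 3 and 3, where the shares of all genes were 0.135%, 1.14%, 0.108%, 0.663%, 0.771% and 2.29%. The counts called lower were 0, 1, 0, 3, 2 and 3, where the shares were 0.244%, 0.907%, 0.244%, 1.31%, 0.717% and 2.14%. These counts changed with the processing, over 0 to 5 genes at p10 and 0 to 15 at p23.

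Mmp2, the gelatinase that degrades basement membrane and can cleave matricellular proteins, was higher than p2 at all 6 passages from p10 to p28, by 1.75, 2.58, 2.69, 2.23, 2.38 and 1.82 in passage order (SE 0.16 to 0.28, limma adjusted p = 0.000416 to 0.00685), and by 0.33 at p5 and 0.04 at p7, which were not called. In the deposited log2 ratios and with scaling within each passage it was called at 4 of the 6 passages, not at p18 and p23, and with global loess at 5, not at p10. Fbln2, a matrix protein of the fibulin family, was the 1 matricellular relative called higher, by 1.64 at p23, 2.01 at p25 and 2.59 at p28. No list gene was called at p23 in the deposited log2 ratios, with scaling within each passage or with the array number as a block. With that block none was called at p25 either. A further 4 genes, named after their values were seen, were each called at 1 passage. They were Sparc at p23, on 1 of its 4 clones (H3026D08, −2.21), Lgals7, a galectin of stratified epithelia, at p25 (1.15), Pdgfra, a receptor for platelet-derived growth factor, at p18 (1.05), and Tgm2, a transglutaminase that cross-links matrix proteins, at p28 (−2.15).

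The receptors were split. Sdc4, the syndecan-4 co-receptor of fibronectin that tenascin-C is known to hinder, was lower on clone H3138F12 (log2 difference −3.09 at p23, −2.04 at p25 and −2.54 at p28) and on clone J0084F02 (−3.68 at p23 and −2.75 at p28). The third clone, H3019E02, read −4.67 at p28 with an SE of 1.31 and was not called. Itga3, the α3 integrin subunit that binds laminin, was lower (−1.33 at p14 and −1.23 at p28). Itgb1, the β1 subunit shared by many integrins, was higher on clone C0183H12 by 1.55 at p14 and 1.14 at p28, but its other clone, H3134H10, read −0.10 and −0.24, so the 2 clones disagreed. Vcl, the focal adhesion protein vinculin, was lower (−1.13 at p23 and −0.88 at p25). The p23 calls of Sdc4 and Vcl were absent in the settings named above. Their p25 calls were absent with the array number as a block.

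At p14 against p10, 2 of the 56 genes were called higher and 2 lower, where 2.44% of all genes were called, 1.3% higher and 1.14% lower. Anxa2, a calcium-dependent membrane protein and tenascin-C receptor, was higher by 2.05 (SE 0.23, limma adjusted p = 0.00179) and Itgb1 (C0183H12) by 1.38. Itga3 was lower (−1.14), as was Lamp2, a lysosomal glycoprotein whose sugars galectins bind (−1.09 on clone H3135D02). In the other 5 contrasts from p10 on limma called none of the 56, with 5 to 17 of them at an unadjusted p under 0.05 (8.93% to 30.4%, against 6.88% to 21.4% of all genes), and among all genes it called 0.0271% (p18 against p14), 0.0% (p23 against p18 and p25 against p23), 0.244% (p28 against p25) and 0.0135% (p23 against p14).

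**Figure D5:**
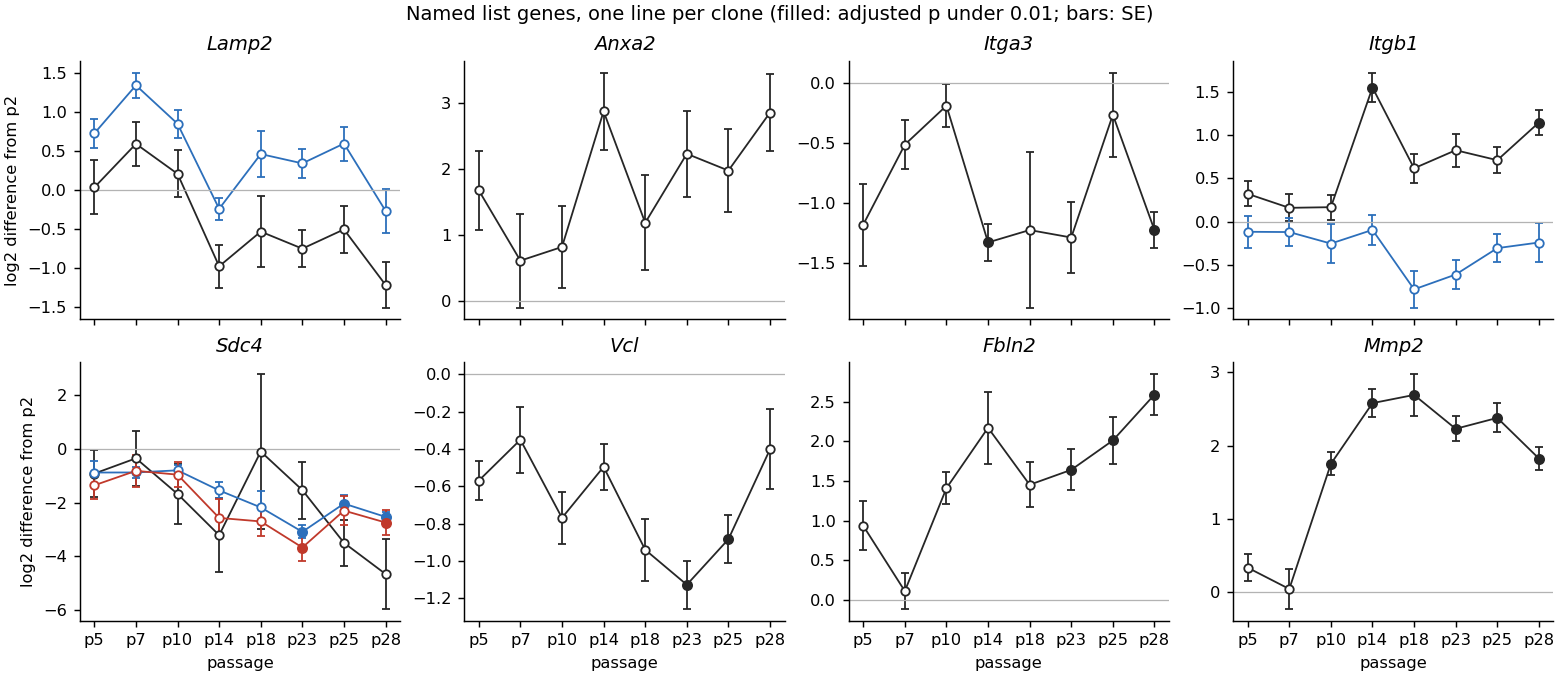
Log2 difference from p2 (y axis) by passage (x axis) for the named list genes, 1 line with SE bars per clone and filled points where the adjusted p was under 0.01. Mmp2 is filled from p10 to p28, Sdc4 lies below 0 on its clones at p23 to p28, and the 2 Itgb1 clones part.

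The array names in the scanner files fall into 5 styles, which may mark separate sets of arrays. The p2 arrays share a style only with 3 p18 arrays, so at the other 7 passages the difference from p2 and the difference between array sets cannot be told apart. On those 3 p18 arrays Tnc read −0.32, −0.67 and −1.37 and Spp1 read −2.17, −5.06 and −3.10, all below the p2 arrays of each gene. At p25 against p23, within arrays of 1 style (3 of p25 and 4 of p23), the Lgals1 clones still differed by 1.10 to 1.44.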

How the data were processed

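RNA of MOSE cells at 9 passages was measured on 35 2-color cDNA arrays. The authors scanned the arrays with GenePix and deposited the mean and local background intensity of each spot in both channels. They also deposited a table of log2 ratios, which was used as an alternative. It was matched to the clones by values, for 15017 of 15023 rows. Intensities were background corrected (local background subtracted, with a floor of 0.5), normalized by print-tip loess over 32 blocks and scaled to a common median absolute log2 ratio with limma 3.58.1 in R 4.3.3, and reverse arrays had their sign turned. Tables were made in Python 3.11.15 with numpy 2.4.6, pandas 2.3.3 and scipy 1.17.1. Of 15254 clones, 10098 had a symbol, which was updated through RefSeq names. A passage mean is the mean of its 2 orientation means. Passages were compared with limma, each pair in its own fit, at a Benjamini-Hochberg adjusted p under 0.01 (0.05 for the slope). The steps were tested on simulated data. Named genes are all clones of the 3 genes, the 6 named genes most alike in course to each, and list genes called against p2 at 2 or more passages or between consecutive passages. The 3 genes and the lists were chosen with earlier results of these data known. The number of arrays limits the precision. Leave-one-array fits and other background, normalization, scaling, filter and model settings were run as alternatives.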

Additional observations from a re-analysis of the deposited data

Results flagged for a closer look

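In 40 groups of 4 arrays (1 clone at 1 passage), 3 had an array that stood far from the other arrays of its passage, and chance alone gives about 1 such group in 20. Spp1 at p5 read −3.16 on array d1, against −4.26 to −4.16 on the other arrays. Without scaling that array read −2.83, against −4.14 to −3.43. Spp1 at p23 read −5.18 on array d2, against −2.49 to −1.94. Without scaling it read −4.94, against −4.56 to −3.66, which is close to the other arrays, and before scaling the spread of log ratios was 0.367 on that array and 0.677 to 0.728 on the other p23 arrays. Lgals1 clone H3022G07 at p28 read 1.74 on array r2, against 2.32 to 2.44, and 2.16 without scaling, against 2.64 to 2.75.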

How the results depend on the processing

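The differences of Tnc, Spp1 and Lgals1 from p2 at p5 kept their signs under all alternatives run, and no contrast of the 5 clones from p10 on was called as reported. The cause of the changes below was not tested. With normexp background the p5 differences from p2 were −3.01 for Tnc, −3.56 for Spp1 and 2.76 for Lgals1, Spp1 at p14 against p10 was called (1.49, limma adjusted p = 0.00658) and 3 of the 56 list genes were called at p10. With median centering without loess, chosen after the data were seen, the p5 differences were −1.76, −2.01 and 2.78. In that setting Tnc at p18 against p14 was −0.25, and at p23 against p18 Spp1 was 0.76, H3022G07 0.31, H3003A03 0.24, Tnc 0.50 and H3009D05 0.24. Tnc at p25 against p23 was −0.18, and at p23 against p14 Spp1 was 0.51 and Tnc 0.25. The slopes of H3022G07 and H3009D05 were 0.0158 and 0.00189 per passage, and list genes called against p2 were 1 at p7, 4 at p10, 1 at p18 and 15 at p23.

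Without scaling, H3022G07 at p14 against p10 was 0.063, Spp1 at p18 against p14 was 0.43, H3022G07 at p23 against p18 was 0.23, Spp1 at p25 against p23 was 0.90 and the Tnc slope was −0.00148, with 1 list gene called at p7, 5 at p10, 3 at p23 and 2 at p25. With scaling within each passage these 5 values were 0.051, 0.14, 0.24, 1.20 and −0.00255, with 2 list genes called at p10, 0 at p18, 0 at p23 and 1 at p25. In the authors' table, Spp1 at p18 against p14 was 0.018, H3022G07 at p23 against p18 was 0.17, Spp1 at p25 against p23 was 1.21 and the Tnc slope was −0.00317, with 1 list gene called at p5, 1 at p7, 5 at p10, 0 at p18, 0 at p23 and 3 at p25. With global loess, Tnc was −0.20 at p18 against p14 and −0.020 at p25 against p23, with 0 list genes called at p10, 1 at p14 and 1 at p18.

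Calls of members appeared in some fits. With dye orientation as a term, Spp1 (1.12, limma adjusted p = 0.00875) and H3003A03 (−0.98, limma adjusted p = 0.00994) were called at p14 against p10, as they were without flagged and dim spots (1.12, limma adjusted p = 0.00529, and −0.98, limma adjusted p = 0.00907). The list counts were 1 at p5, 2 at p10, 6 at p14 and 7 at p18 with the dye term, and 1 at p5, 1 at p7 and 3 at p10 without such spots. In a single fit of all arrays, H3003A03 was called at p18 against p14 (−1.20, limma adjusted p = 0.00831) and at p23 against p14 (−1.50, limma adjusted p = 0.000695). With the array series as a block, this second contrast was also called (−1.50, limma adjusted p = 0.00352), Spp1 at p18 against p14 was 1.37, H3022G07 and H3003A03 at p23 against p18 were 0.31 and 0.062, and Tnc at p25 against p23 was −0.032, as it was within 1 array series. Without p10 the slopes were 0.0142 for H3022G07, −0.00809 for Tnc and 0.0242 for H3009D05.

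Leaving out 1 array at a time moved Spp1 at p14 against p10 over 0.995 to 1.28 (limma adjusted p = 0.00529 without p14 array r2) and at p28 against p25 over 1.44 to 2.02 (0.00674 without p25 array d1). The differences near 0 changed sign, over −0.61 to 0.71 (Spp1, p18 against p14), −0.10 to 0.25 (Tnc, p18 against p14), −0.80 to 0.69 (Spp1, p23 against p18), −0.42 to 0.0072 (H3022G07, p23 against p18), −0.59 to 0.033 (Tnc, p23 against p18), −0.36 to 0.27 (Tnc, p25 against p23), −0.065 to 0.22 (H3022G07, p28 against p25), −0.42 to 0.66 (Spp1, p23 against p14) and −0.57 to 0.056 (Tnc, p23 against p14).

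Same-numbered arrays of different passages share a dye orientation, and no label states a pairing between them. In the contrasts from p10 on, their deviations correlated at −0.0992 to 0.254, mostly positive. These values do not settle whether the arrays were paired, and p2 was not among them. With that number as a replicate block, list genes called against p2 numbered 0, 0, 1, 0 and 0 by passage over p10 to p25 (6 at p28 in both fits), and no call of the 5 clones changed. With this block Mmp2 was called at 1 of the 6 passages from p10 on (p28).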
